A study of Mus musculus with 6 samples.

Results

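Genes of steroid metabolism were examined in RNA-seq of primary uterine stromal cells from day 4 of pseudopregnancy. The set has 9 genes: Hsd11b1, Hsd11b2, Hsd17b4, Hsd17b11, Akr1c18, Srd5a1, Srd5a3, Star and Cyp11a1. These were taken by name and known role, with earlier results of these data already known. The products are enzymes, apart from STAR, which carries cholesterol. They are 9 of the 54232 genes in the count table, each had at least 1 count in some library, and 8 passed the filter on low counts.

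Steroid hormones act in the uterus at levels that local enzymes can change within the cell. HSD11B1 regenerates active glucocorticoid from its inert keto form, with NADPH supplied in the endoplasmic reticulum by H6PD, and HSD11B2 runs the opposite reaction. AKR1C18 inactivates progesterone by reducing its side-chain ketone, a step known best from the corpus luteum, and SRD5A1 reduces progesterone and testosterone on the steroid ring. STAR and CYP11A1 stand at the entry of the pathway, where cholesterol reaches the inner mitochondrial membrane and is cleaved to pregnenolone.

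The Pbrm1 cKO mice carried floxed Pbrm1 alleles and a Cre inserted at the progesterone receptor gene, which drives recombination in cells that express this receptor. PBRM1 is a subunit of the PBAF form of the SWI/SNF chromatin remodeler. Controls are called WT in the labels, whereas the methods of the study name them Pbrm1 fl/fl. Per the labels the animals were 8 to 12 weeks old, and the protocol calls them pseudopregnant although a time label says pregnancy. Between 5 and 10 uterine horns went into a preparation. Per the methods of the study, the cells were plated for 4 hours in medium with charcoal-stripped serum. Fresh medium, with serum not described as stripped, followed for 2 more hours before RNA was taken. The values thus describe cells briefly in culture. Each group held 3 libraries. Per the study these are biological replicates, and the labels do not say which animals or preparations they came from.

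Total counts were between 13253575 and 18338667 per library. WT replicates 1 to 3 held 1267, 1248 and 1551 counts of Pbrm1 itself, whereas the Pbrm1 cKO replicates held 402, 574 and 481, a log2 fold change of -1.76 (DESeq2 adjusted p = 5.2e-40), so the labels fit the targeted gene. The stromal markers were abundant in every library, with summed normalized counts (counts divided by the DESeq2 size factor of the library) of 112906 to 130277 in WT and 87264 to 93798 in Pbrm1 cKO, and 7 of 13 were lower and 1 was higher. Markers of leukocytes summed to 4749 to 10207 in WT and to 42642 to 44117 in Pbrm1 cKO, with 14 of 15 tested higher and none lower, and the pan-leukocyte gene Ptprc at 172 to 370 in WT and 1070 to 1138 in Pbrm1 cKO. Epithelial markers summed to 2264 to 4168 in WT and 4420 to 4614 in Pbrm1 cKO (5 of 13 higher, none lower). Smooth muscle markers summed to 55505 to 59912 and to 53474 to 55565 (4 of 9 lower, none higher), and of 6 mast cell and basophil markers tested none was called. Several marker sums were split inside the WT group. Epithelial sums were 2264, 4168 and 3956 and leukocyte sums 4749, 10207 and 9877 in WT replicates 1 to 3. Endothelial markers had sums of 1754 in replicate 1, 5248 in replicate 2 and 4534 in replicate 3, against 1744 to 1930 in Pbrm1 cKO (3 of 10 lower, 1 higher). Of the markers tested, 61.5% of stromal, 93.3% of leukocyte, 38.5% of epithelial, 44.4% of smooth muscle and 40.0% of endothelial genes were called. The share among all genes tested was 31.1% (DESeq2 adjusted p under 0.05). In such bulk libraries fewer cells of a type and less RNA per cell cannot be told apart. The part of these markers in the results on the enzymes was not tested.

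Of the 8 members tested, 3 were lower in Pbrm1 cKO (Hsd11b1, Akr1c18 and Srd5a1), 1 was higher (Hsd17b11) and 4 did not pass the threshold (DESeq2 adjusted p under 0.05 over all genes tested). Among all 17474 genes tested, 31.1% passed, 15.9% as higher and 15.2% as lower. The member share rests on 8 genes only. WT and Pbrm1 cKO values were fully separate in 5 of the 8 members tested, against 48.6% of all genes tested. Separation of the groups was thus common in this table and carries little weight by itself. The largest differences were falls of over 6-fold for Hsd11b1 and Akr1c18, whereas the median log2 fold change of the 8 was 0.09 and that of all genes tested was near 0 (-0.0007).

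**Figure D1:**
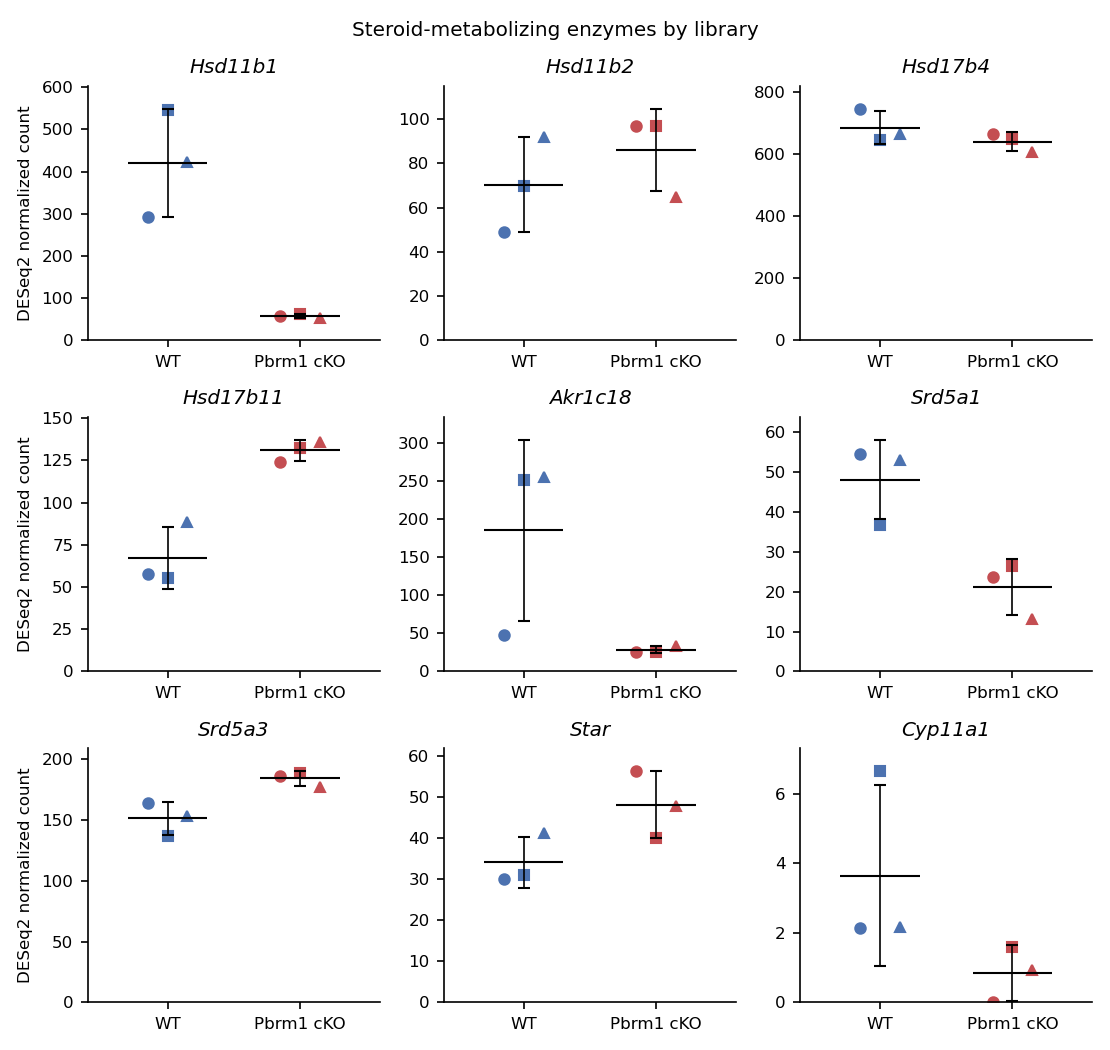
DESeq2 normalized count of each of the 9 genes in each library (circle, square and triangle for replicates 1, 2 and 3), with the mean (line) and SD (bar) of the 3 libraries of a group. Every axis starts at 0. Hsd11b1 stood between 292 and 547 in WT and between 53.5 and 61.5 in Pbrm1 cKO, and 1 WT library of Akr1c18 lay far below the other two.

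Of the glucocorticoid pair, Hsd11b1 fell steeply and Hsd11b2 did not pass the threshold. Hsd11b1 (ENSMUSG00000016194.14, GRCm38 chr1:193221634-193264075, minus strand) had normalized counts of 292, 547 and 423 in WT replicates 1 to 3, against 58.2, 61.5 and 53.5 in the Pbrm1 cKO replicates in the same order. The lowest WT library stood well above the highest Pbrm1 cKO library, and the mutant libraries lay close together. The means of 421 ± 128 and 57.7 ± 4.04 (SD, n = 3 each) differed 7.28-fold, a log2 fold change of -2.86 (SE 0.24, DESeq2 adjusted p = 7.29e-30). The call held in each of 15 alternative analyses, where the log2 fold change ran from -3.07 to -2.63. WT replicate 1, whose endothelial marker sum was at the Pbrm1 cKO level, had 292 normalized counts of Hsd11b1. By the mean of log2(normalized count + 1), its endothelial markers were below that level, at 6.33 against 6.96 to 7.08 in Pbrm1 cKO. The part of endothelial cells in the fall of Hsd11b1 was not tested.

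Hsd11b2 (ENSMUSG00000031891.6, chr8:105518755-105523988, plus strand), the oxidative enzyme that shields the mineralocorticoid receptor from glucocorticoid, overlapped between the groups. It had normalized counts of 49.2, 69.9 and 91.9 in WT and 96.7, 96.7 and 64.7 in Pbrm1 cKO. Pbrm1 cKO replicate 3 fell inside the WT range, and the other mutant libraries lay just above it. The log2 fold change was 0.29 (95% interval -0.29 to 0.88, DESeq2 adjusted p = 0.521), an interval that leaves room for a rise of nearly 1 on the log2 scale.

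Because the partners catalyse opposite reactions, their ratio was taken within each library on a scale per gene length. The transcript level of Hsd11b1 was 2.57, 3.39 and 1.99 times that of Hsd11b2 in WT replicates 1 to 3. It was 0.261, 0.275 and 0.358 times that of Hsd11b2 in the Pbrm1 cKO replicates. Hsd11b1 was thus the more abundant transcript of the pair in every WT library and the less abundant in every Pbrm1 cKO library. The mean log2 ratio was 1.37 ± 0.38 in WT and -1.76 ± 0.24 in Pbrm1 cKO, a difference of -3.13 (two-sided exact permutation p = 0.1, the smallest that 3 against 3 libraries can give). This is a ratio of transcripts and says nothing of enzyme activity.

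The other parts of the glucocorticoid system were read from lists written for this comparison. H6pd, which feeds NADPH to HSD11B1, was abundant and did not pass the threshold: the normalized counts ran from 5936 to 6260.3 in WT and from 5864 to 6651 in Pbrm1 cKO (log2 fold change 0.04, SE 0.09, DESeq2 adjusted p = 0.773). The glucocorticoid receptor gene Nr3c1 was higher, at 1153, 1192 and 1321 in WT and 1726, 1727 and 1634 in Pbrm1 cKO (log2 fold change 0.47, SE 0.10, DESeq2 adjusted p = 1.56e-05). The mineralocorticoid receptor gene Nr3c2 had 2, 2 and 0 counts in WT, and the Pbrm1 cKO libraries held 3, 6 and 2, too few to be tested.

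Genes that glucocorticoids are known to induce were called in both directions. Of 12 tested, 3 were higher and 3 lower, with a median log2 fold change of -0.03, against 15.9% higher and 15.2% lower among all genes tested. Pdk4, which restrains glucose oxidation, fell from 154, 225 and 299 normalized counts in WT to 23.7, 20.8 and 19.7 in Pbrm1 cKO (log2 fold change -3.41, SE 0.31). Cebpd, a transcription factor gene, fell by 1.43 on the log2 scale, and Dusp1, a phosphatase gene that is also an immediate early gene, fell by 1.09. Fkbp5, a co-chaperone gene often read as a marker of glucocorticoid action and named here after its values were seen, was higher, at 326, 241 and 328 in WT and 526, 544 and 483 in Pbrm1 cKO (log2 fold change 0.80, SE 0.15, DESeq2 adjusted p = 2.77e-06). Ddit4 was higher by 0.92. Genes of this list are known to answer other signals too.

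Akr1c18 (ENSMUSG00000021214.14, chr13:4132615-4150654, minus strand), the gene of the progesterone-inactivating reductase, was the other member with a large fall. Its normalized counts were 48.1, 252 and 255 in WT and 25.7, 25.6 and 33.8 in Pbrm1 cKO. All WT libraries lay above all Pbrm1 cKO libraries, but WT replicate 1 lay much nearer to the mutants than to the other WT libraries. The means were 185 ± 119 and 28.3 ± 4.72 (SD, n = 3 each), and the log2 fold change of -2.71 had a wide error (SE 0.71, 95% interval -4.10 to -1.32, DESeq2 adjusted p = 0.000856). Without WT replicate 1 the log2 fold change was -3.17 (DESeq2 adjusted p = 7.83e-33), and over 15 alternatives it ran from -3.17 to -2.36 with the call kept in each.

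The endothelial, epithelial and leukocyte marker sums had the same split within WT, low in replicate 1. The endothelial marker Emcn had 274, 1615 and 1327 normalized counts in WT, against 267, 284 and 243 in Pbrm1 cKO, low in the same WT library as Akr1c18 (log2 fold change -2.02, SE 0.69, a call that held on omission of WT replicate 1 and of no other library). Cdh5, another endothelial gene, was instead even within WT, at 774, 713 and 677, and lower in Pbrm1 cKO, at 190.4, 192 and 201. Vwf of the same list rose, from 21.4, 67.7 and 69.2 in WT replicates 1 to 3 to 192, 210 and 187 in the mutants. Its log2 fold change was 1.90 (SE 0.33), and no single-library omission ended the call. Egfl7 was called lower, though, like Emcn, only WT replicate 1 could be left out without losing the call. Pecam1, Kdr, Tek, Cldn5, Esam and Plvap did not pass the threshold. WT replicate 1 had an endothelial sum of 1754, against 1744 to 1930 in Pbrm1 cKO. Its Akr1c18 stood at 48.1, against 25.6 to 33.8 in Pbrm1 cKO. The epithelial and leukocyte sums of WT replicate 1 were, unlike its endothelial sum, below those of every Pbrm1 cKO library. By the mean of log2(normalized count + 1), its endothelial markers were below those of every Pbrm1 cKO library too, at 6.33 against 6.96 to 7.08. The part of endothelial, epithelial or leukocyte content in the fall of Akr1c18 was not tested. Markers of luteal and granulosa cells, where Akr1c18 is known to be prominent, were mixed in level. Fshr and Cyp19a1 had no count in any library, Lhcgr had 2 counts in WT replicate 1 and none elsewhere, and Hsd3b1, Inha, Amh and Nr5a1 stayed under 10 normalized counts. Inhba ran from 17373 to 37446 normalized counts in WT and from 37067 to 40416 in Pbrm1 cKO, Hsd17b7 from 353 to 535 and from 279 to 340.4, Foxl2 from 72.1 to 102 and from 56.2 to 63.9, and Sfrp4 from 31.1 to 41.7 and from 50.3 to 71.9. Of 8 markers of this list tested, 0 were higher and 1 was lower, Ptgfr, at 13.9, 24.4 and 15.1 in WT and 2.96, 7.99 and 4.69 in Pbrm1 cKO (12.5% called, against 31.1% of all genes tested). The call of Ptgfr was lost without WT replicate 2 or 3 or Pbrm1 cKO replicate 1 or 3. The summed level of the list, 18043 to 37968 in WT and 37477 to 40909 in Pbrm1 cKO, was almost wholly Inhba. The part of such cells in the fall of Akr1c18 was not tested.

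**Figure D2:**
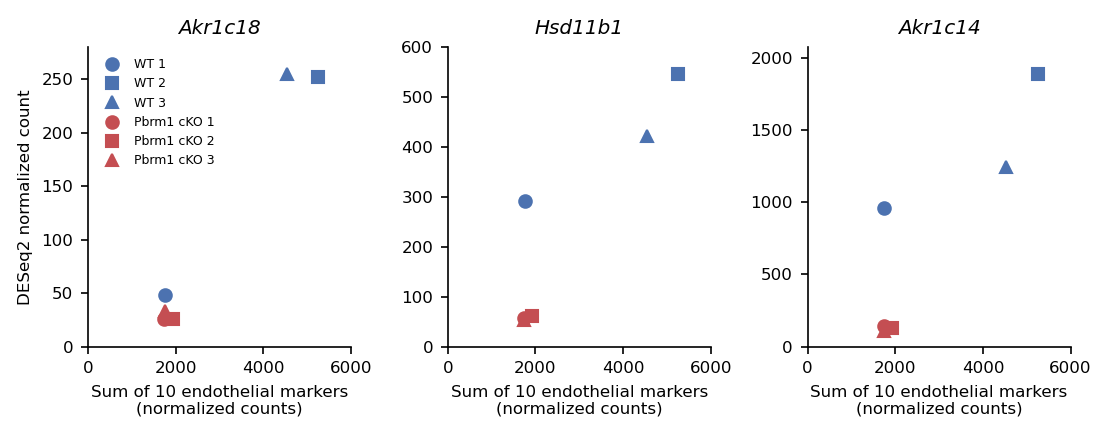
Normalized count of Akr1c18, Hsd11b1 and Akr1c14 in each library against the summed normalized count of the 10 endothelial markers in that library (horizontal axis). WT replicate 1 had an endothelial sum (1754) within the range of the Pbrm1 cKO libraries (1744 to 1930). It had 48.1 counts of Akr1c18, 292 of Hsd11b1 and 959.8 of Akr1c14. By the mean of log2(normalized count + 1) of the same markers it lay below the Pbrm1 cKO libraries, at 6.33 against 6.96 to 7.08.

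Akr1c18 lies in a cluster of related aldo-keto reductase genes on chromosome 13, and a neighbour there, Akr1c14, also fell. Akr1c14 (chr13:4049011-4090688, plus strand, 41.9 kb away) encodes a hydroxysteroid dehydrogenase that acts after steroid ring reduction. It had normalized counts of 959.8, 1886 and 1245 in WT and 144, 129 and 106 in Pbrm1 cKO, a clear separation with no overlap. The log2 fold change was -3.43 (SE 0.23, DESeq2 adjusted p = 8.27e-49), and it stayed between -3.63 and -3.13 in 15 alternatives. Akr1c13, on the other side of Akr1c18 and 40.5 kb away, did not pass (18, 34 and 17 counts in the WT libraries against 33, 45 and 52 in the mutants, log2 fold change 0.64, DESeq2 adjusted p = 0.256), and 24.2% of its 50-base windows also occur in Akr1c12. Akr1c19 and Akr1c12 had at most 8 and 5 counts in any library, and Akr1c6, Akr1c20 and Akr1c21 had none. Akr1e1, at the far end of the cluster, had a log2 fold change of -0.33 (DESeq2 adjusted p = 0.0943). Of the 50-base windows of Akr1c18 itself 0.581% occur in another gene, and the share was 5.8% for Akr1c14, all with a pseudogene that had no count.

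Stretches before the RefSeq start of Akr1c18 and Akr1c14, the cluster neighbours that fell together, are shown to let their sequence be compared. For Akr1c14 the start is that of RefSeq, which lies inside the gene as counted, so the stretch is within the span of the longer annotated model and upstream of a shorter one. Every E-box (letters CANNTG, the core read by basic helix-loop-helix factors, the same on both strands) is in capitals. They come from RefSeq (GRCm38.p6), 5′ to 3′ on the strand of the gene, from 250 bases before the annotated start up to the first annotated exon. They cover chr13:4150655-4150896 (minus strand, 242 bases) and chr13:4059341-4059540 (plus strand, 200 bases).
Akr1c18: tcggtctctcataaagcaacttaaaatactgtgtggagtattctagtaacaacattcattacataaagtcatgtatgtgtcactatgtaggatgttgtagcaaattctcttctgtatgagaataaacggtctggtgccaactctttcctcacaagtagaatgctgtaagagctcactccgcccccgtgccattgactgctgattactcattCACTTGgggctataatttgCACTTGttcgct
Akr1c14: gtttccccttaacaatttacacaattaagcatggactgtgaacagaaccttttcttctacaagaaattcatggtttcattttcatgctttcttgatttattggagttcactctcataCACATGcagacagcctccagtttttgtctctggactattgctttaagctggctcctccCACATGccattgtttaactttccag

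Each stretch held 2 E-boxes. In Akr1c18 both read CACTTG and began 39 and 20 bases before the start, and in Akr1c14 both read CACATG and began 133 and 75 bases before it. An E-box occurred in 65.3% of all 32851 promoters over the same 242 bases and in 59.0% over the same 200 bases, so its presence is ordinary. The half-site letters of the steroid receptor response element (AGAACA, both strands) and the C/EBP core (TTGCNNAA, both strands) were in neither stretch, against 15.6% and 9.35% of promoters over 242 bases. A GC box (GGGCGG, both strands) was found only upstream of Akr1c18, 73 bases before the start, and in 31.6% of promoters. The share of G and C was 40.9% in the Akr1c18 stretch and 39.0% in the Akr1c14 stretch.

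Srd5a1 (ENSMUSG00000021594.11, chr13:69573449-69611442, minus strand) encodes the steroid reductase that acts on progesterone and testosterone. It had normalized counts of 54.5, 36.6 and 53.0 in WT and 23.7, 26.4 and 13.1 in Pbrm1 cKO, with no overlap but a gap of only about 10 counts between the groups. The means of 48.0 ± 9.91 and 21.1 ± 6.99 (SD, n = 3 each) gave a log2 fold change of -1.18 (SE 0.39, DESeq2 adjusted p = 0.0109). The direction held in all 15 alternatives, but the call was lost without WT replicate 1 (adjusted p = 0.0520 with DESeq2), WT replicate 3 (0.0658) or Pbrm1 cKO replicate 3 (0.0868). It was also lost with a replicate block (0.0672) and in a test with a log2 fold limit of 0.58 (1.0), in both with DESeq2. It also shares 15.1% of its 50-base windows with Gm17108, a transcript on the same strand that overlaps 16.4% of its exonic bases. Gm17108 had at most 12.97 normalized counts in any library.

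Srd5a3 (ENSMUSG00000029233.15, chr5:76140271-76155504, plus strand), a relative of Srd5a1 that works mainly in the making of dolichol, the lipid carrier of N-glycans, moved the other way by a small amount that did not pass. Its normalized counts were 164, 137 and 153 in WT and 186, 189 and 177 in Pbrm1 cKO. The groups did not overlap, but the log2 fold change of 0.28 (95% interval -0.05 to 0.62) had a DESeq2 adjusted p of 0.217. Of 15 other genes of dolichol and early N-glycan synthesis, all tested, 2 were lower and 0 higher, 13.3% in all against 31.1% of all genes tested. These were Alg13, a glycosyltransferase subunit gene (log2 fold change -0.44), and Dolk, the dolichol kinase gene (-0.41), and neither call held without WT replicate 2, Pbrm1 cKO replicate 1 or Pbrm1 cKO replicate 2.

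Of the 17β-hydroxysteroid dehydrogenase genes, Hsd17b11 was the only member that rose. HSD17B11 sits on lipid droplets and oxidises hydroxyl groups of androgens and other substrates. Its gene (ENSMUSG00000029311.16, chr5:103989762-104021919, minus strand) had normalized counts of 57.7, 55.5 and 88.6 in WT and 124, 133 and 136 in Pbrm1 cKO. All mutant libraries lay above all WT libraries. The means of 67.3 ± 18.5 and 131.0 ± 6.04 (SD, n = 3 each) differed 1.95-fold (log2 fold change 0.96, SE 0.24, DESeq2 adjusted p = 0.000569). The call held in 14 of 15 alternatives and was lost in a test with a fold limit (0.58 on the log2 scale, DESeq2 adjusted p = 0.985). The leukocyte markers rose in the same libraries, and their part in the rise of Hsd17b11 was not tested.

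Of 7 other lipid droplet genes tested, 1 was higher and 1 lower, a share of 28.6% against 31.1% of all genes tested, and 2 were higher with limma voom or with the length trend removed. Plin2, a coat protein gene of the droplet, was higher (log2 fold change 0.28, DESeq2 adjusted p = 0.0093), though not without Pbrm1 cKO replicate 1 or 2. G0s2, which encodes an inhibitor of triglyceride lipase, was at 54.5, 58.8 and 57.3 normalized counts in WT, against 23.7, 13.6 and 23.5 in Pbrm1 cKO (log2 fold change -1.50, SE 0.36).

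Hsd17b4 (ENSMUSG00000024507.6, chr18:50128201-50196269, plus strand), the multifunctional enzyme of peroxisomal β-oxidation that can also oxidise estradiol, did not pass the threshold. It had normalized counts of 744, 644 and 665 in WT and 664, 649 and 605 in Pbrm1 cKO. The groups overlapped, and the log2 fold change of -0.10 had a narrow interval (-0.32 to 0.13, DESeq2 adjusted p = 0.587). Among the other genes of peroxisomal β-oxidation, Crot, a carnitine acyltransferase gene, fell by 0.57 on the log2 scale (SE 0.14, DESeq2 adjusted p = 0.000179), from 377, 407 and 425 normalized counts in WT to 254, 268 and 289.9 in the mutants.

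Among 5 further genes of the 17β-hydroxysteroid dehydrogenase family tested, Hsd17b10, a mitochondrial member, was lower at 531, 670.3 and 681 in WT and 379, 407 and 416 in Pbrm1 cKO (log2 fold change -0.65, SE 0.14). Hsd17b12, which elongates fatty acids, was called higher by a small margin (log2 fold change 0.29, DESeq2 adjusted p = 0.0496), and lost the call on leaving out any library but WT replicate 3.

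**Figure D3:**
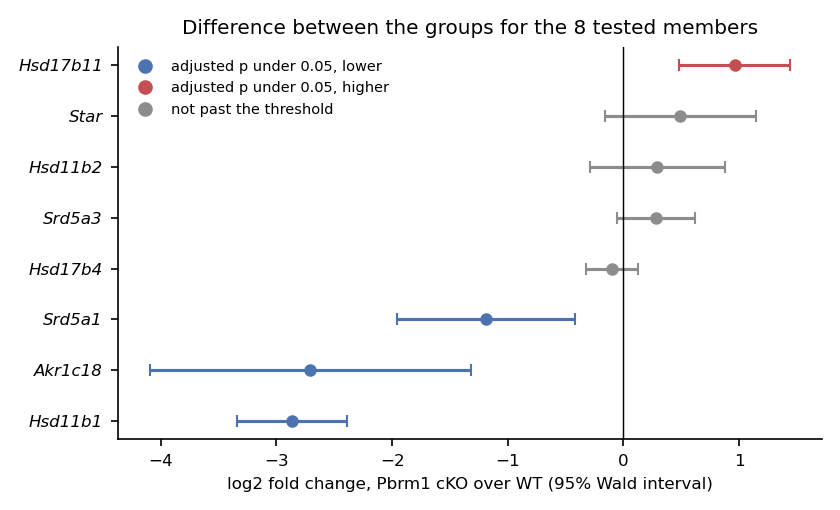
Log2 fold change of Pbrm1 cKO over WT for the 8 members that were tested, with the 95% Wald interval from DESeq2. Intervals of Hsd11b1, Akr1c18, Srd5a1 and Hsd17b11 stay clear of 0, and the interval of Akr1c18 (-4.10 to -1.32) is the widest.

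At the entry of the pathway, Star and Cyp11a1 were low. Star (ENSMUSG00000031574.8, chr8:25806555-25815982, plus strand) had normalized counts of 29.9, 31.1 and 41.1 in WT and 56.2, 40.0 and 47.9 in Pbrm1 cKO. The groups overlapped at 1 library each, and the log2 fold change of 0.49 (95% interval -0.16 to 1.14) had a DESeq2 adjusted p of 0.284. Cyp11a1 (ENSMUSG00000032323.13, chr9:58006411-58027023, plus strand) had raw counts of 2, 6 and 2 in WT and 0, 2 and 1 in Pbrm1 cKO. All 3 Pbrm1 cKO libraries were at or under the floor of 3 counts, and the gene was not tested.

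Genes of the 3β-hydroxysteroid dehydrogenase and steroidogenic P450 list were close to absent. Of its 10 genes, 3 had a count in any library and 1 was tested, without a call. Hsd3b1, which in the mouse makes progesterone, had 1 count in WT replicate 2 and 1 in Pbrm1 cKO replicate 3. Hsd3b6, Cyp17a1, the androgen-forming P450 gene, and Cyp19a1, the aromatase gene, had none in any library. Nr5a1, the gene of the transcription factor SF-1 that drives steroidogenic cells, had between 1 and 10 counts per library. A count of 0 allows up to 3 counts, or 0.164 to 0.226 CPM (counts scaled to the library total) depending on the library, for counting error only.

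Cholesterol handling and electron supply were expressed and mixed in direction, with 2 higher and 3 lower of 12 tested (41.7% against 31.1% of all genes tested) and a median log2 fold change of -0.33. Por, the reductase gene that feeds microsomal P450 enzymes, was higher, at 1321, 1321 and 1489.6 in WT and 2258, 2149 and 2044 in Pbrm1 cKO (log2 fold change 0.64, SE 0.10). Stard3, a late endosomal relative of Star, was higher by 0.51. The cytochrome b5 genes Cyb5b and Cyb5a, whose products assist microsomal and mitochondrial oxidation, fell by 0.67 and 0.66 on the log2 scale. Fdx1, the ferredoxin gene that passes electrons to CYP11A1, fell by 0.47 (DESeq2 adjusted p = 0.0304), a call that 4 of the 6 single-library omissions ended (WT replicates 2 and 3, Pbrm1 cKO replicates 1 and 2). Its reductase gene Fdxr (-0.43, adjusted p = 0.13) and the outer-membrane cholesterol-binding gene Tspo (-0.23, adjusted p = 0.125) did not pass with DESeq2.

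Among 11 other aldo-keto and steroid reductase genes tested, 2 were higher and 3 lower, 45.5% in all against 31.1% of all genes tested. Apart from Akr1c14, Cbr1, a carbonyl reductase gene, and Akr1b3, the aldose reductase gene, fell by 0.61 and 0.33 on the log2 scale. The call of Cbr1 was lost without WT replicate 3, Pbrm1 cKO replicate 1 or 3, and that of Akr1b3 without Pbrm1 cKO replicate 1 or 2. Akr1b8 was higher, at 964, 1179.7 and 1226 in WT and 2509, 2617 and 2415 in Pbrm1 cKO (log2 fold change 1.16, SE 0.12). Of 12 steroid hydroxylation, conjugation and transport genes tested, 4 were higher and 0 lower, 33.3% in all, near the 31.1% of all genes tested. Cyp1b1, a P450 gene whose product hydroxylates estradiol, had 5.34, 24.4 and 31.3 normalized counts in WT, against 56.2, 47.9 and 52.5 in Pbrm1 cKO (log2 fold change 1.36, SE 0.48). The steroid sulfate transporter gene Slco2b1 was higher by 1.06, the glucuronosyltransferase gene Ugt1a7c by 0.73 and the efflux pump gene Abcb1b by 0.31. Those 4 calls were not steady: between 0 and 3 genes of the list were called higher when 1 library was left out, and none without Pbrm1 cKO replicate 1 or replicate 2. In the DESeq2 fit of genes kept by filterByExpr, and without WT replicate 1, 1 gene of the list was called lower.

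**Figure D4:**
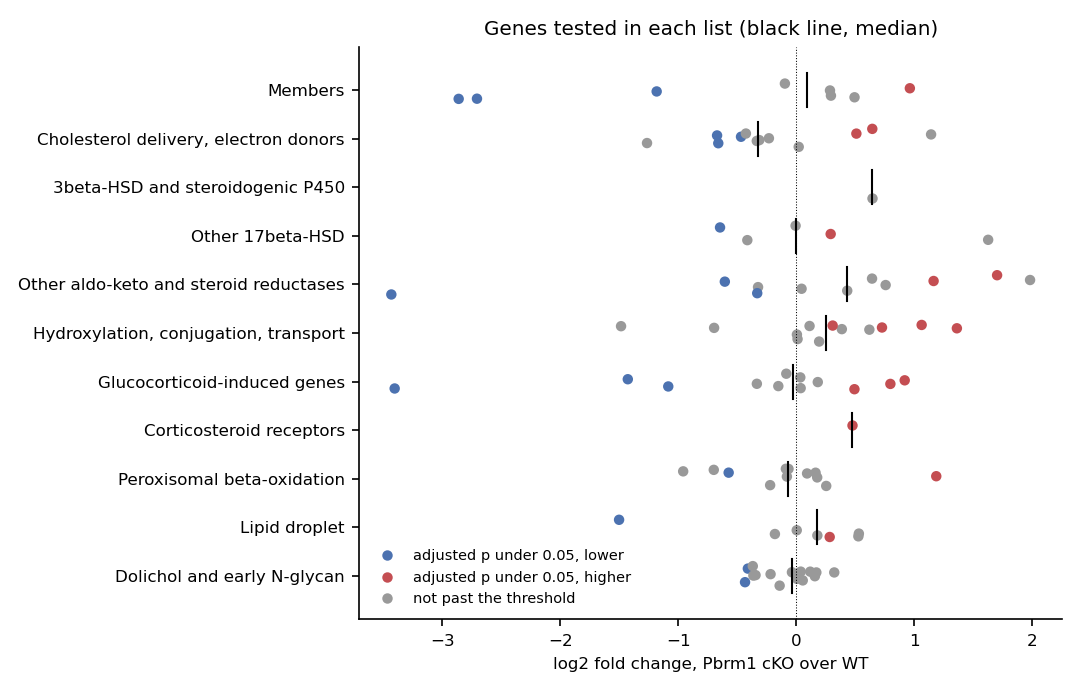
Log2 fold change of Pbrm1 cKO over WT (horizontal axis) for each tested gene of the members and of the 10 pathway lists, with a black line at the median of each list. Blue and red points passed the DESeq2 threshold and grey points did not, and the points furthest from 0 are Akr1c14 (-3.43), Pdk4 (-3.41) and the members Hsd11b1 (-2.86) and Akr1c18 (-2.71).

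Over all 10 pathway lists, 15 of 88 genes tested were higher and 14 were lower, 33.0% in all, close to the 31.1% of all genes tested. The 5 lists of steroid synthesis and turnover had 9 higher and 7 lower of 41 (39.0%). Among lists with at least 5 genes tested, the called share ran from 13.3% (dolichol and early N-glycan) to 50% (glucocorticoid-induced).

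Levels were compared between genes only per length, as TPM (counts per base of the gene, scaled to the same total in each library) computed from the counts, and only within a group, since the total that TPM divides by differed between groups. In WT the order of the means was Hsd17b4 (37.9 ± 3.90), Akr1c18 (28.6 ± 18.1), Hsd11b1 (18.5 ± 5.17), Hsd11b2 (7.18 ± 2.14), Srd5a3 (6.14 ± 0.71), Hsd17b11 (3.89 ± 1.08), Srd5a1 (3.12 ± 0.71), Star (1.56 ± 0.28) and Cyp11a1 (0.142 ± 0.097). Hsd17b4 and Akr1c18 overlapped between libraries, as did Akr1c18 and Hsd11b1, Hsd11b2 and Srd5a3, and Hsd17b11 and Srd5a1, so these neighbours have no firm order. In Pbrm1 cKO the order was Hsd17b4 (40.7 ± 3.13), Hsd11b2 (10.2 ± 2.42), Hsd17b11 (8.68 ± 0.19), Srd5a3 (8.58 ± 0.51), Akr1c18 (5.07 ± 0.69), Hsd11b1 (2.94 ± 0.27), Star (2.53 ± 0.47), Srd5a1 (1.58 ± 0.55) and Cyp11a1 (0.038 ± 0.036). Here Hsd11b2, Hsd17b11 and Srd5a3 overlapped in sequence, as did Hsd11b1 and Star. Akr1c18 and Hsd11b1 were above Hsd11b2, Hsd17b11 and Srd5a3 by the mean in WT and below them in Pbrm1 cKO.

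**Figure D5:**
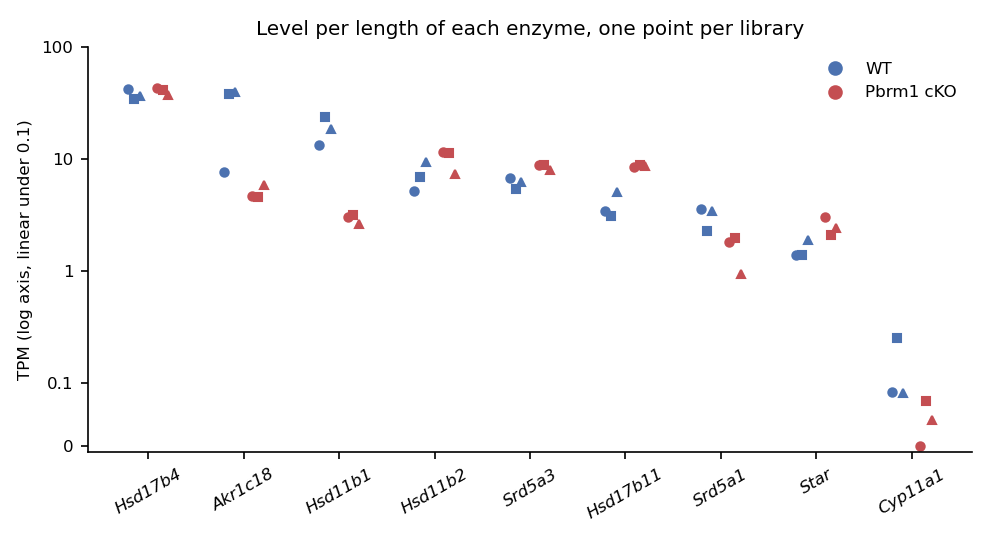
TPM of each of the 9 genes in each library, on a log axis that is linear under 0.1 TPM, ordered by the WT mean (WT in blue, Pbrm1 cKO in red). By the mean, Hsd17b4 was highest and Cyp11a1 lowest in each group, and the order is to be read within a group.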

How the data were processed

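Reads were single-end and 50 bases long. After trimming (cutadapt 2.7) the authors aligned them to GRCm38/mm10 (HISAT2 2.1.0) and assigned them with featureCounts 1.6.4, set to reverse-stranded libraries, to the genes of GENCODE release 18. The deposited values are these raw counts, with no normalization. Per the labels the kit used random and poly(T) priming with depletion, whereas the methods of the study describe poly(A) selection. Deposited total counts were 13253575 to 18338667 per library, and symbols were found for 54079 identifiers (99.7%).

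All 6 libraries entered a DESeq2 1.42.0 Wald test (R 4.3.3) with no covariates, unshrunken log2 fold changes of Pbrm1 cKO over WT, the default independent filter and Benjamini-Hochberg adjustment over all genes tested, with a threshold of 0.05. An adjusted p given for a gene is from this test. Values are normalized counts as mean ± SD. TPM used the gene lengths of the deposited table. Alternatives were edgeR 4.0.16, limma 3.58.1 voom, TMM scaling, removal of a trend with gene length, filters on low counts, the fold limits of the study, a test against a log2 fold change of 0.58, a replicate block and leaving out each library. The pipeline was tested on simulated data. Shared 50-base windows were counted in GENCODE release 21 transcripts. Upstream sequences that overlapped an annotated exon were cut there or, for Hsd11b1 and Srd5a1, not used, because the whole window lay in an exon.

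The members and the gene lists were chosen with earlier results of these data known. Named were all members, fixed genes around them, and at most the 4 most changed called genes of a list (mean normalized count 20 or more). Fkbp5, Ptprc, Gm17108 and the luteal and granulosa markers were named after their values were seen. Hsd17b8 was found under the older symbol H2-Ke6, and Sts was not matched. A gene that this rule would name is not reported here.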

Additional observations from a re-analysis of the deposited data

How the results depend on the processing

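No direction turned in any of the 15 alternatives for the 8 members tested, Pbrm1 or Akr1c14. The log2 ratio of Hsd11b1 to Hsd11b2 was recomputed in 8 ways (scaled to the library total, 1 count added, and without each library), and its difference ran from -3.32 to -2.94. The calls of Hsd11b1 and Akr1c18 held throughout. With a fold-limit test (absolute log2 fold change over 0.58, adjusted p under 0.1), members called higher were 0, because Hsd17b11 (DESeq2 adjusted p = 0.985) was lost, and Srd5a1 was lost too (1.0). That test called 699 higher and 563 lower of all genes, 2 and 4 of the pathway genes and 1 and 1 of the steroid lists. Under the limits of the study (1.5-fold, p of 0.01, adjusted p of 0.1) these were 1665 and 1452 of all genes, 8 and 9 of the pathway genes, and 5 higher of the steroid lists. Both counts over all genes exceeded those that the study reports under these limits, and the cause was not tested.

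Leaving out 1 library at a time gave 1 member higher and 2 to 3 lower, 1923 to 2915 genes higher and 1790 to 2660 lower, 8 to 14 pathway genes higher and 9 to 18 lower, and 3 to 7 genes of the steroid lists higher and 4 to 9 lower. Counts of pathway genes were lowest without Pbrm1 cKO replicate 1 (8 higher and 9 lower). The cause was not tested.

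Replicate numbers did not pair the libraries: the deviations of same-numbered libraries correlated at 0.114, -0.0515 and 0.0028. With a replicate block, pathway genes called higher were 9, steroid-list genes called higher were 4, and Srd5a1 was lost (DESeq2 adjusted p = 0.0672). Of all genes, 2175 were higher and 1828 lower with the block.

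With 3 libraries in a group no exact test of a single value can go under 0.1, and genes at a few counts, such as Cyp11a1 and most of the 3β-hydroxysteroid dehydrogenases, could not be compared at this depth. The spread was larger in WT (biological coefficient of variation 0.165) than in Pbrm1 cKO (0.0473) by edgeR.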
